A study of Homo sapiens with 9 samples.

Results

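The genes described here are 10 genes of Wnt signalling, DKK1, DKK3, AXIN2, WNT5A, WNT7A, WNT7B, WNT10A, FZD6, LRP6 and RNF43, found by symbol among the 58735 genes of the count table. They were chosen by a list drawn up with earlier results of the same libraries in view, that is, on their levels and fold changes between all 3 groups, so their levels and differences are a description. Where a gene is said to be called, its adjusted p was under 0.05 in edgeR's fit across all genes. For the 10 genes such calls show only how far a value hangs on single libraries and settings, and they are not evidence of a difference independent of that choice. Enough counts for a fit were present for 9 of the 10, all but AXIN2. RNA had been sequenced from FaDu, an established line of squamous carcinoma of the hypopharynx, in 9 libraries. Control cells, with the genotype given as WT, supplied 3 libraries. A further 3 came from cells labelled as AMIGO2 knockdown, and 3 from cells labelled as AMIGO2 knockdown with CAPN2 overexpressed. All 9 shared the same line and serum-containing medium, and no other treatment is recorded. The labels number biological replicates 1 to 3 in each group. How the knockdown and the overexpression were made, and whether cells were clones or pools, is not given in the sources used here.

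Wnt proteins are secreted lipid-modified ligands that bind Frizzled receptors. With the co-receptors LRP5 and LRP6 they prevent the destruction of beta-catenin, which then acts with TCF and LEF factors at target genes. Other Wnt proteins, WNT5A the best known, act mainly without beta-catenin. DKK1 blocks the co-receptors from outside the cell, while AXIN2 and RNF43 are targets of the pathway that feed back on it, AXIN2 in the destruction complex and RNF43 by removing Frizzled from the surface. In stratified squamous epithelium Wnt ligands of the WNT7 and WNT10 kind are made by the keratinocytes themselves.

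The library totals ran from 15158607 to 19737562 counts, and 3 counts, taken as the limit of detection, equalled 0.149 to 0.203 CPM (counts per 1e6 counts of the library). These limits cover counting error only. CPM values below are scaled by trimmed mean of M values (TMM) factors. AMIGO2, the targeted gene and an adhesion protein with leucine-rich repeats, was not lower in the libraries labelled with its knockdown. It stood at 27.6 ± 1.73 CPM in control, 27.7 ± 3.41 in the knockdown-labelled libraries and 39.0 ± 3.79 with the knockdown plus CAPN2 label (SD, n = 3), with log2 differences from control of 0.006 ± 0.115 and 0.50 ± 0.114 (edgeR adjusted p = 0.971 and 0.00106). Part of its exons overlaps PCED1B. CAPN2, the large subunit of calpain-2, stood at 462 ± 13.9, 418 ± 20.3 and 499 ± 1.29 CPM, 1.19-fold higher in the last group than in the one before (log2 0.26 ± 0.079, adjusted p = 0.012), a difference no longer called without the first library of the last group (log2 0.23) or with no filter on low counts (0.22), and 0.16 but still called after a correction for GC content and length. Against control, CAPN2 in the last group differed by log2 0.11 (95% interval -0.057 to 0.275, edgeR adjusted p = 0.254) and was not called. Over 18 alternative analyses this difference ran from -0.06 to 0.21 and was called in 2. No direction given below therefore rests on a measured knockdown, or on CAPN2 called above control in the fit of all libraries. Groups are named by their labels throughout. Replicates were least alike in the knockdown-labelled set, with a chi-square per gene of 18.5 to 19.0 between pairs (over genes whose summed count in a pair reached 10), against 2.57 to 4.63 within control and 2.87 to 6.78 within knockdown plus CAPN2. Squamous markers were all present (9 of 9 tested), with a summed level of 7921 to 8416 CPM in control, 4174 to 5259 in the knockdown-labelled set and 4664 to 5255 under the knockdown plus CAPN2 label. Most of the fall in this sum was KRT5 (4437 ± 133, 1207 ± 180 and 1616 ± 121 CPM; SD, n = 3). KRT14, KRT6A and SFN were also lower than control in both labelled sets. CDH1 was higher in both (381 ± 6.40, 455 ± 25.7 and 614 ± 15.8 CPM). KRT17, TP63, DSG3 and EPCAM were higher in one and lower in the other. Of 6 fibroblast markers 1 was tested and LUM was at 0, and of 6 blood and immune markers 0 were tested and HBB was at 0. Of 6 endothelial markers 2 were tested and KDR was at 0. The summed endothelial level was 17.7 to 22.6, 43.3 to 49.5 and 16.2 to 16.8 CPM. It consisted mostly of CDH5 (14.8 ± 2.40, 43.2 ± 2.93 and 13.7 ± 0.482 CPM; SD, n = 3), while VWF went the other way in the knockdown-labelled set (5.67 ± 0.564, 2.44 ± 0.354 and 2.61 ± 0.295 CPM) and PECAM1, TEK and CLDN5 were near 0. The part of these markers in the Wnt values was not tested. In bulk RNA, fewer cells that make a transcript and less transcript per cell cannot be told apart.

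Stretches before the start sites of DKK1, WNT7A and RNF43 are shown because these genes stood apart in the libraries labelled knockdown, DKK1 and WNT7A higher and RNF43 lower. RefSeq windows on GRCh38.p14, from 250 bases before a start to 50 after it, were used for 5 of the 10 genes. No window was matched by symbol for DKK3, AXIN2, WNT7B or LRP6, and any window of FZD6 was left out of the search. DKK3 and WNT7B, which also stood apart in the libraries labelled knockdown, could thus not be shown. The windows were searched on both strands for 3 motifs. That of TCF and LEF factors was CTTTGAA as one form, CTTTGAT as another form, CTTTGTA as a further form and CTTTGTT as the last. That of AP-1 was TGANTCA, and that of CHOP with ATF4 was TGATGNAA, where N is any base. Each sequence runs 5′ to 3′ on the strand of its gene, ends before an annotated start, and has matches in capitals.
DKK1: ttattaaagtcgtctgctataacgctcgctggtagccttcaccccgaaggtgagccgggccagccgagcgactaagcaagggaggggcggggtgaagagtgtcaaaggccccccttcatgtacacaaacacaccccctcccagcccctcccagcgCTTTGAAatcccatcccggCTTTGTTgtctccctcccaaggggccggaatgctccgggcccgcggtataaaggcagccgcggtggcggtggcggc
WNT7A: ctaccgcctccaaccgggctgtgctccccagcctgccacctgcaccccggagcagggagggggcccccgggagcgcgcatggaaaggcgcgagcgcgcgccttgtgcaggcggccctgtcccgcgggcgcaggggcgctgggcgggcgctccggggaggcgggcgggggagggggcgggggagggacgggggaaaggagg
RNF43: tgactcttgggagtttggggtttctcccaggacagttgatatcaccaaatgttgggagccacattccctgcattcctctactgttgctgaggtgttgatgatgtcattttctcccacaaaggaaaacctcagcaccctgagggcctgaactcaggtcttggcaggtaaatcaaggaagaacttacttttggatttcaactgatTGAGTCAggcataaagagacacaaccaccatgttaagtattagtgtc
The DKK1 stretch (chr10:52314031-52314280, plus strand, 250 bases) holds 2 TCF/LEF matches, CTTTGAA and CTTTGTT, which begin 95 and 76 bases before the start. All 250 bases lie in an exon of the antisense gene PRKG1-AS1 in GENCODE v29. The WNT7A stretch (chr3:13880122-13880321, minus strand, 200 bases) is 80.0% G and C and has 0 matches. The RNF43 stretch (chr17:58402722-58402971, minus strand, 250 bases) lies before an inner start of the gene and holds 1 AP-1 match, TGAGTCA, 47 bases before it. All 250 bases lie inside the annotated RNF43 gene, and inside those of AC004687.2 and TSPOAP1-AS1. The second RNF43 window and the windows of WNT10A and WNT5A hold none of these letters. Of the 35116 windows counted as background 13.8% hold a TCF/LEF match, 7.71% an AP-1 match and 3.62% a CHOP-ATF4 match. They are letters in a window and were not tied to binding or to the levels below.

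**Figure D1:**
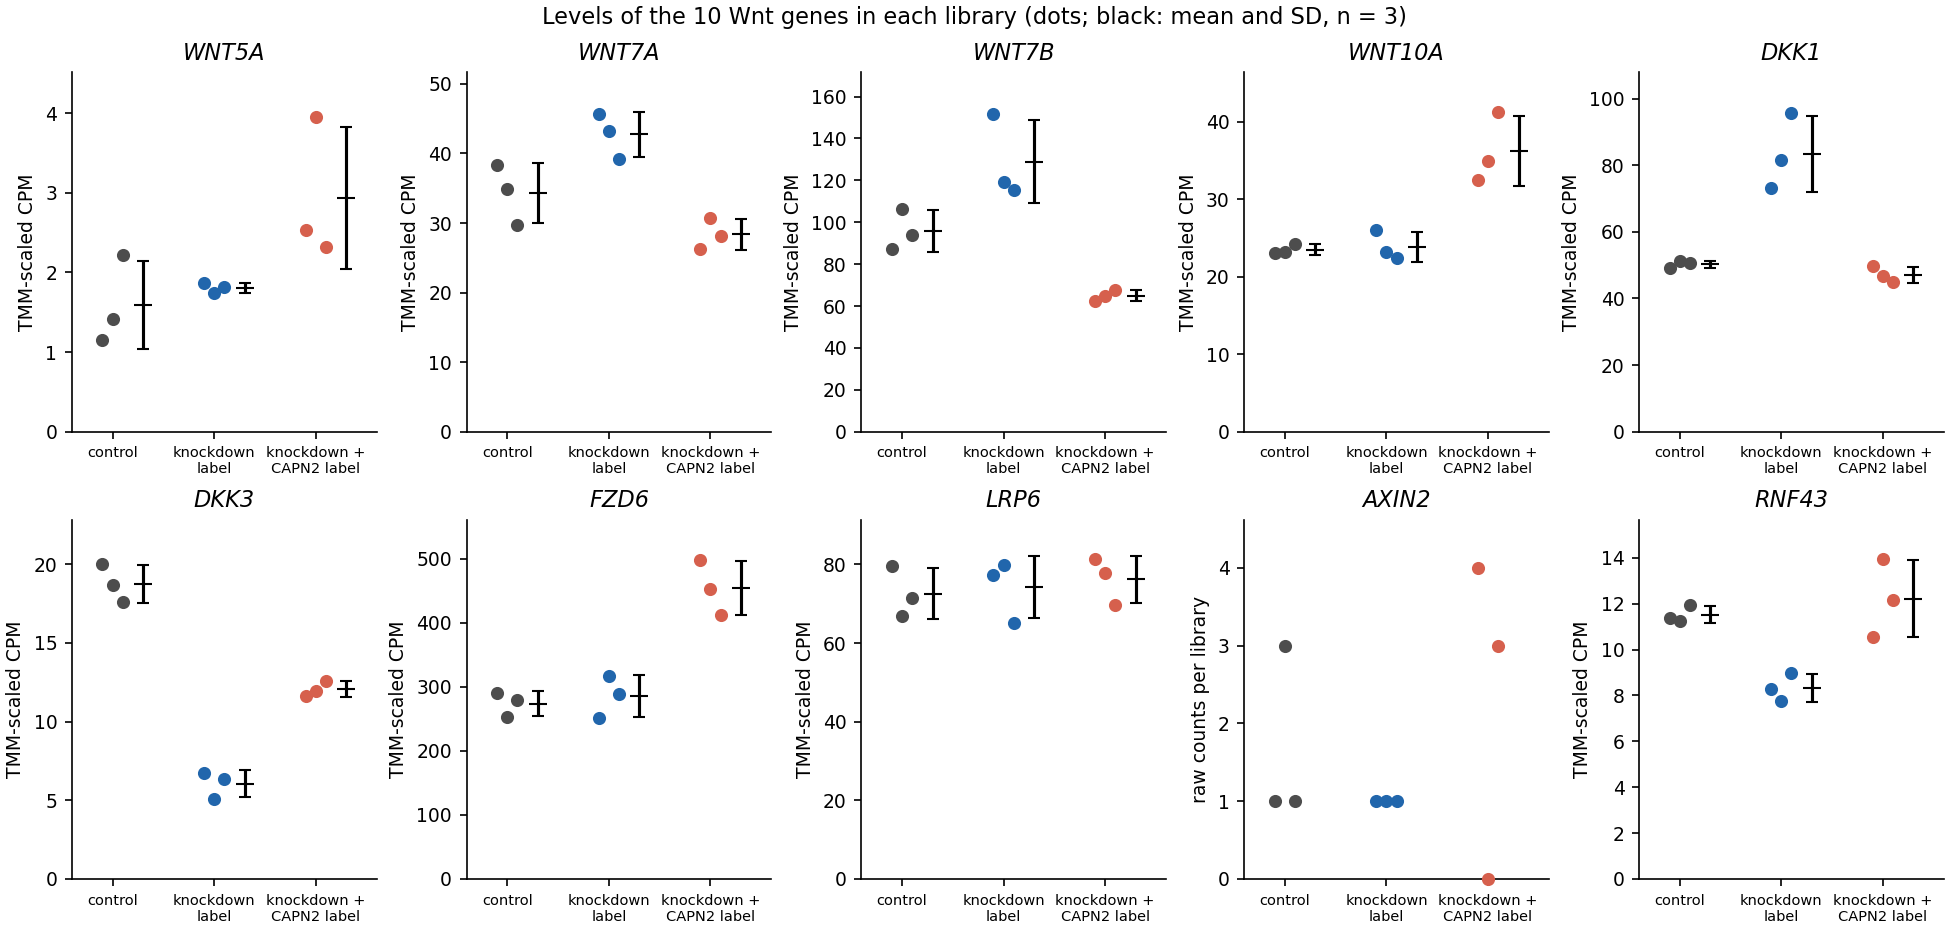
Levels of the 10 Wnt genes in each library, in TMM-scaled CPM on axes from 0 (raw counts for AXIN2), with 3 dots per group and the mean and SD in black. DKK1, WNT7A and WNT7B are highest and DKK3 and RNF43 lowest in the libraries labelled knockdown, FZD6 and WNT10A are highest in those labelled knockdown plus CAPN2, and the LRP6 libraries overlap in all 3 groups.

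The ligands did not move together. WNT7A and WNT7B, close relatives that act through beta-catenin in epithelia, were highest in the knockdown-labelled set and lowest in the knockdown plus CAPN2 set, whereas WNT10A and WNT5A were highest in the knockdown plus CAPN2 set. WNT7B (ENSG00000188064, GRCh38 chromosome 22, 45920362 to 45977129, minus strand) was the most abundant of them. The control libraries had 87.0, 106 and 93.8 CPM, the knockdown-labelled ones 152, 119 and 116 CPM, and the knockdown plus CAPN2 ones 62.3, 65.0 and 67.7 CPM. The 3 groups did not overlap, and the first library labelled knockdown was the highest of all. The means were 95.7 ± 9.87, 129 ± 19.7 and 65.0 ± 2.70 CPM (SD, n = 3). In the knockdown-labelled set WNT7B was 1.34-fold above control (log2 0.43 ± 0.107 SE), and knockdown plus CAPN2 was 1.98-fold below the knockdown-labelled set (log2 -0.99 ± 0.109) and 1.47-fold below control (log2 -0.56 ± 0.109). The first and last of these log2 values became 0.68 and -0.31 after a correction for GC content and length.

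WNT7A (ENSG00000154764, GRCh38 chromosome 3, 13816258 to 13880121, minus strand) followed the same order in narrower steps. It stood at 38.3, 35.0 and 29.8 CPM in control, at 45.7, 43.3 and 39.3 CPM in the knockdown-labelled set, and at 26.3, 30.7 and 28.1 CPM in the knockdown plus CAPN2 set. All libraries labelled knockdown exceeded all others, and the remaining groups overlapped through the third control library. The means were 34.3 ± 4.29, 42.7 ± 3.24 and 28.4 ± 2.19 CPM (SD, n = 3). Knockdown plus CAPN2 was 1.51-fold below the knockdown-labelled set (log2 -0.59 ± 0.112). The smaller differences from control, log2 0.32 ± 0.111 in the knockdown-labelled set and -0.27 ± 0.113 in the knockdown plus CAPN2 set, were less stable. The former was no longer called without the first library labelled knockdown (0.27), the second control library (0.33) or the third (0.22). The latter was no longer called in 12 of 18 alternatives. Among them were RLE factors and DESeq2 (both -0.27), upper-quartile factors (-0.17), no filter on low counts (-0.29) and a filter at 1 CPM (-0.25). The call was also lost without the first or the third library labelled knockdown plus CAPN2 (-0.22 and -0.27) or without the first or the second control library (-0.20 and -0.27), and the value became -0.07 after the GC and length correction.

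WNT10A (ENSG00000135925, GRCh38 chromosome 2, 218880363 to 218899581, plus strand), a ligand of skin appendages and teeth, overlapped between control and the knockdown-labelled set and was higher in the knockdown plus CAPN2 set. It stood at 23.0, 23.2 and 24.2 CPM in control, 26.0, 23.1 and 22.4 CPM in the knockdown-labelled set, and 32.5, 34.8 and 41.2 CPM in the knockdown plus CAPN2 set. The lowest of these last 3 lay above every other library. Their mean of 36.2 ± 4.50 CPM was 1.54-fold above the control mean of 23.5 ± 0.658 (log2 0.62 ± 0.113) and 1.52-fold above that of 23.8 ± 1.90 in the knockdown-labelled set (log2 0.60 ± 0.112; SD, n = 3). Between the knockdown-labelled set and control the log2 difference was 0.02 ± 0.114, and 0.30 after the GC and length correction, then called. That correction also raised the difference of knockdown plus CAPN2 from control to 0.99.

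WNT5A (ENSG00000114251, GRCh38 chromosome 3, 55465715 to 55490539, minus strand) was scarce. It stood at 1.15, 1.41 and 2.21 CPM in control, 1.86, 1.74 and 1.82 CPM in the knockdown-labelled set, and 2.53, 3.96 and 2.33 CPM in the knockdown plus CAPN2 set. The last group lay above the others by a small margin, with the second of its libraries well above the other two. The means were 1.59 ± 0.554, 1.81 ± 0.0616 and 2.94 ± 0.889 CPM (SD, n = 3). Knockdown plus CAPN2 was 1.84-fold above control (log2 0.88 ± 0.298), a difference no longer called without the second of its libraries (0.60), without the first or second control library (0.69 and 0.78) or after the GC and length correction (0.65). Its difference from the knockdown-labelled set, log2 0.70 ± 0.289, was not called in the fit of all libraries, but was called without the third of the knockdown plus CAPN2 libraries (0.84), without the third control library (0.69), with upper-quartile factors (0.76) or with only the groups compared (0.70).

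The 2 Dickkopf genes differed from control in opposite directions in the knockdown-labelled set. DKK1, the secreted antagonist of LRP6, was highest in the knockdown-labelled set and at the control level in the knockdown plus CAPN2 set, while DKK3, a divergent family member that does not bind LRP6 in the manner of DKK1, was lowest in the knockdown-labelled set. DKK1 (ENSG00000107984, GRCh38 chromosome 10, 52314296 to 52318042, plus strand) stood at 49.1, 51.1 and 50.7 CPM in control, 73.1, 81.6 and 95.6 CPM in the knockdown-labelled set, and 49.8, 46.6 and 45.0 CPM in the knockdown plus CAPN2 set. The libraries labelled knockdown lay above all others and were the most spread. Their mean of 83.4 ± 11.3 CPM was 1.66-fold above the control mean of 50.3 ± 1.05 (log2 0.73 ± 0.102) and 1.77-fold above the 47.1 ± 2.46 CPM of knockdown plus CAPN2, a log2 difference of -0.82 ± 0.102 for the latter against the former (SD, n = 3). Knockdown plus CAPN2 and control overlapped, and their log2 difference of -0.09 ± 0.103 had a 95% interval from -0.31 to 0.12 and was 0.009 with upper-quartile scaling. The gene shares 212 exon bases with PRKG1-AS1, which had 25 counts in all libraries together against 9274 for DKK1.

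DKK3 (ENSG00000050165, GRCh38 chromosome 11, 11963106 to 12009769, minus strand) showed the widest differences of the 10 genes. It stood at 20.0, 18.7 and 17.6 CPM in control, 6.76, 5.08 and 6.33 CPM in the knockdown-labelled set, and 11.6, 11.9 and 12.6 CPM in the knockdown plus CAPN2 set. The 3 groups lay far apart, with knockdown plus CAPN2 between the other two. The means were 18.8 ± 1.22, 6.05 ± 0.873 and 12.0 ± 0.510 CPM (SD, n = 3). The knockdown-labelled set was 3.11-fold below control (log2 -1.64 ± 0.139), knockdown plus CAPN2 2.00-fold above the knockdown-labelled set (log2 1.00 ± 0.141) and 1.56-fold below control (log2 -0.64 ± 0.131). Per length, DKK1 exceeded DKK3 by 6.17 ± 0.499 in control, 32.1 ± 6.42 in the knockdown-labelled set and 8.99 ± 0.831 in the knockdown plus CAPN2 set (ratio of RPKM, which is CPM divided by gene length in kilobases; SD, n = 3).

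Of the receptors, FZD6 was higher in the knockdown plus CAPN2 set and LRP6 differed little anywhere. FZD6 encodes a Frizzled that is known for planar polarity and for signalling apart from beta-catenin. It (ENSG00000164930, GRCh38 chromosome 8, 103298433 to 103332866, plus strand) stood at 290, 253 and 279 CPM in control, 252, 317 and 289 CPM in the knockdown-labelled set, and 498, 452 and 413 CPM in the knockdown plus CAPN2 set. Control and the knockdown-labelled set overlapped, and every library labelled knockdown plus CAPN2 lay above both. The means were 274 ± 19.3, 286 ± 32.9 and 454 ± 42.5 CPM (SD, n = 3). Knockdown plus CAPN2 was 1.66-fold above control (log2 0.73 ± 0.099) and 1.59-fold above the knockdown-labelled set (log2 0.67 ± 0.099). The former fell to 0.47 after the GC and length correction, which turned the difference between the knockdown-labelled set and control from 0.06 ± 0.099 to -0.17, then called. BAALC-AS1, whose exons overlap those of FZD6, had 460 counts against 51210.

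LRP6 (ENSG00000070018, GRCh38 chromosome 12, 12116025 to 12267012, minus strand), the co-receptor that DKK1 binds, stood at 79.6, 66.9 and 71.4 CPM in control, 77.4, 79.9 and 65.2 CPM in the knockdown-labelled set, and 81.3, 77.8 and 69.7 CPM in the knockdown plus CAPN2 set. All 3 groups overlapped. The log2 differences were 0.03, 0.04 and 0.07, each ± 0.103, and their 95% intervals lay between -0.18 and 0.29. The GC and length correction turned all 3 negative, to -0.16, -0.18 and -0.34, the last 2 then called.

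The feedback targets were at low levels, AXIN2 at the limit of detection. AXIN2 (ENSG00000168646, GRCh38 chromosome 17, 65528563 to 65561647, minus strand), a standard readout of beta-catenin signalling, had 1, 3 and 1 counts in control, 1, 1 and 1 in the knockdown-labelled set, and 4, 0 and 3 in the knockdown plus CAPN2 set. These 15 counts lay at or about the limit of 3 counts a library, so no difference between groups was detectable at this depth and no fold is given. RNF43 (ENSG00000108375, GRCh38 chromosome 17, 58352500 to 58417595, minus strand), a ubiquitin ligase against Frizzled, was lowest in the knockdown-labelled set. It stood at 11.4, 11.3 and 11.9 CPM in control, 8.27, 7.76 and 8.96 CPM in the knockdown-labelled set, and 10.6, 13.9 and 12.2 CPM in the knockdown plus CAPN2 set. The libraries labelled knockdown lay below all others, and the remaining groups overlapped. The means were 11.5 ± 0.363, 8.33 ± 0.603 and 12.2 ± 1.69 CPM (SD, n = 3). The knockdown-labelled set was 1.38-fold below control (log2 -0.47 ± 0.141), a difference no longer called without the second library labelled knockdown (-0.39) or the third control library (-0.44), and knockdown plus CAPN2 was 1.47-fold above the knockdown-labelled set (log2 0.55 ± 0.140). Of its 7505 bases RNF43 shares 4326 exon bases with AC004687.2, 1521 with TSPOAP1-AS1 and 143 with SUPT4H1. These had 28, 23 and 3 counts in all libraries together against 1610 for RNF43. How reads in shared bases were counted is not given in the sources used here, so its level per length is uncertain.

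**Figure D2:**
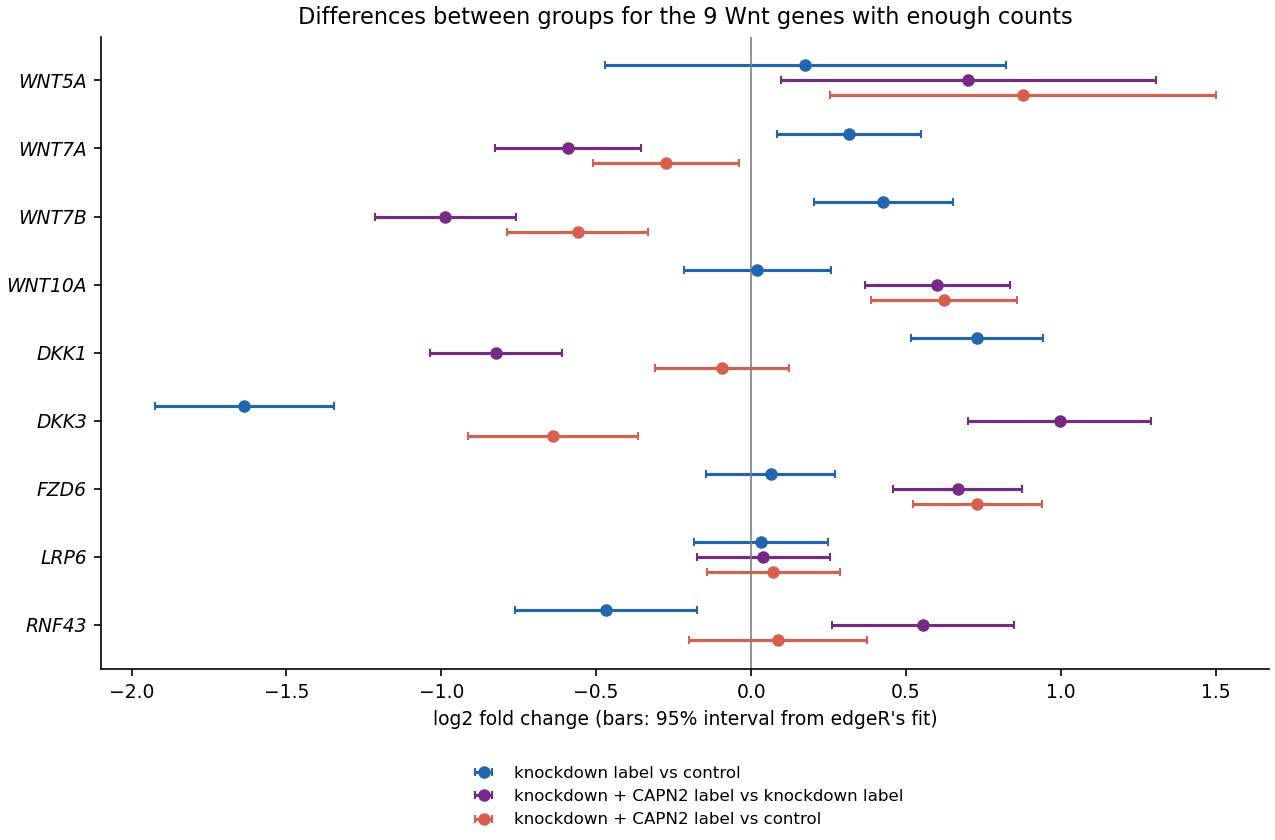
Log2 fold changes of the 9 genes with enough counts in the 3 comparisons, with 95% intervals from edgeR's fit and a line at 0. DKK3 has the widest differences, from -1.64 to 1.00, and all 3 LRP6 intervals hold 0.

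The same 3 comparisons were in view when the 10 genes were picked, so the numbers of them called are given beside those of all genes and nothing is read from them. At an adjusted p under 0.05 in edgeR's quasi-likelihood test, 16.0% of the 16812 genes tested were higher and 18.5% lower in the knockdown-labelled set than in control. Of the 9 tested Wnt genes 3 were higher (DKK1, WNT7A, WNT7B) and 2 lower (DKK3, RNF43), with a median log2 difference of 0.06 beside -0.01 over all genes. For knockdown plus CAPN2 against the knockdown-labelled set the shares of all genes were 23.7% higher and 25.6% lower. There 4 of the 9 were higher (DKK3, FZD6, RNF43, WNT10A) and 3 lower (DKK1, WNT7A, WNT7B), with a median of 0.55 beside 0.009. For knockdown plus CAPN2 against control 27.9% of genes were higher and 28.4% lower. There 3 were higher (FZD6, WNT10A, WNT5A) and 3 lower (DKK3, WNT7A, WNT7B), with a median of 0.07 beside 0.02. The 3 comparisons share libraries, so they are not independent of each other.

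Compared per length, in TMM-scaled RPKM, the genes kept a wide spread of levels. FZD6 was the highest in every group, at 67.4 ± 4.74 in control, 70.4 ± 8.09 in the knockdown-labelled set and 112 ± 10.5 in the knockdown plus CAPN2 set (SD, n = 3). DKK1 came next (22.8 ± 0.476, 37.8 ± 5.14 and 21.4 ± 1.12) followed by WNT7B (19.0 ± 1.95, 25.5 ± 3.91 and 12.9 ± 0.534). These genes were well expressed. FZD6 lay at the 97.8 percentile of tested genes by mean RPKM, DKK1 at 90.3 and WNT7B at 85.4. WNT7A (7.50 ± 0.937), LRP6 (7.02 ± 0.621) and WNT10A (6.88 ± 0.193) followed in control, where WNT7A overlapped LRP6 and LRP6 overlapped WNT10A. In the knockdown-labelled set LRP6 (7.18 ± 0.762) overlapped WNT10A (6.99 ± 0.556), and DKK3 (1.20 ± 0.173) overlapped RNF43 (1.11 ± 0.0803). In the knockdown plus CAPN2 set no neighbours overlapped, and WNT10A (10.6 ± 1.32) stood above LRP6 (7.38 ± 0.579) and WNT7A (6.19 ± 0.478). At the lower end WNT5A stood at 0.215 ± 0.0749, 0.244 ± 0.00832 and 0.397 ± 0.120, the 8.54 percentile. With TPM in place of RPKM the order in each group was the same.

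**Figure D3:**
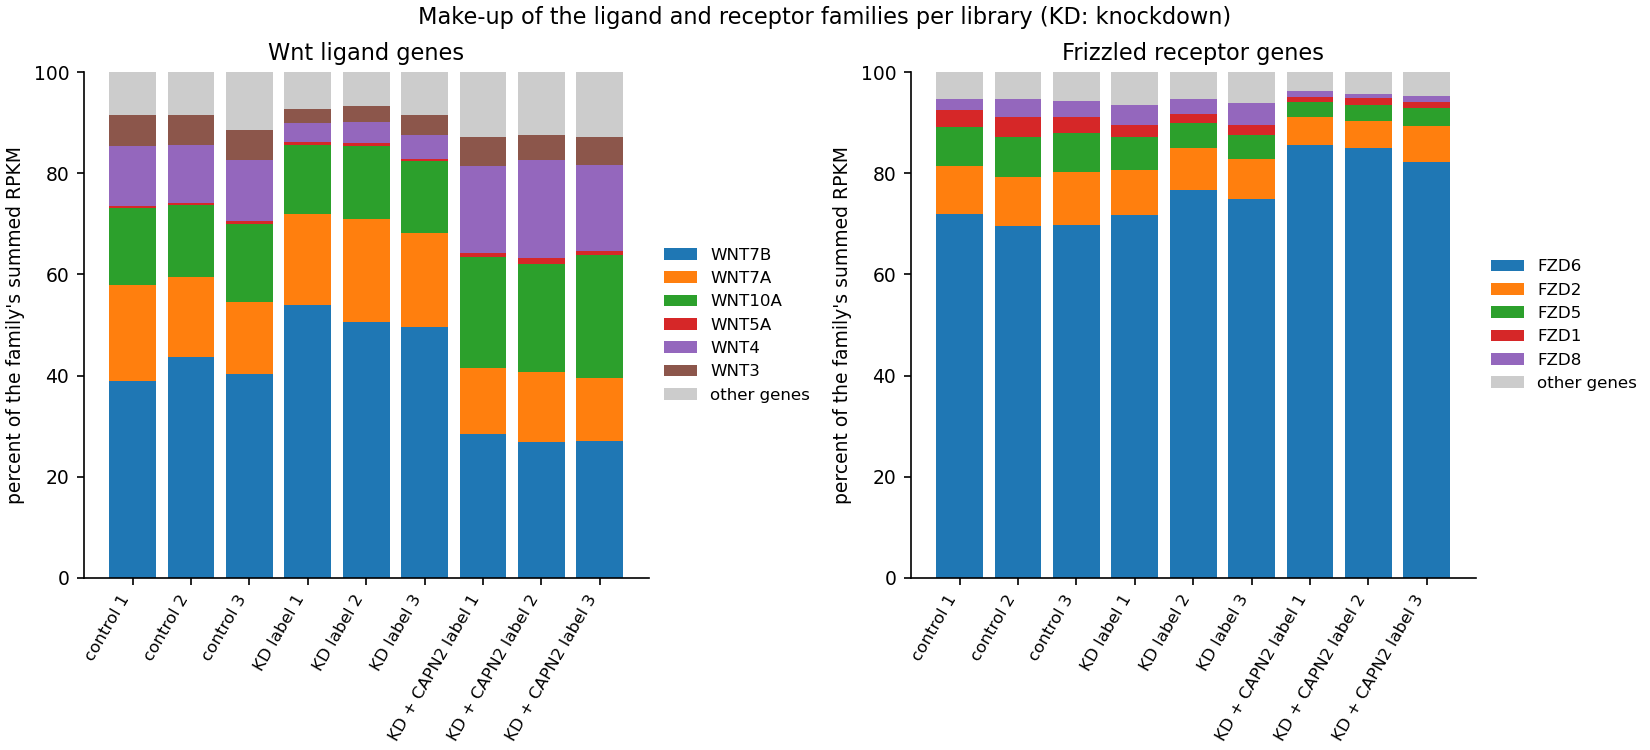
Share of the summed RPKM of the 19 Wnt ligand genes (left) and the 10 Frizzled genes (right) in each of the 9 libraries, in percent, with genes of small share in grey. WNT7B holds the largest share of ligand RNA in each library, a smaller one in the knockdown plus CAPN2 set, and FZD6 holds most of the Frizzled RNA throughout.

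Read as shares of their families, the same values show which ligand and receptor messages prevailed. The 4 ligand genes described here held 72.7 ± 1.90% of the summed RPKM of 19 Wnt genes in control, 85.0 ± 1.81% in the knockdown-labelled set and 64.0 ± 0.737% in the knockdown plus CAPN2 set (SD, n = 3). The summed ligand level itself was 46.1 ± 1.99, 49.4 ± 5.28 and 47.0 ± 3.11 RPKM, within the spread between libraries. WNT7B held 41.0 ± 2.46%, 51.4 ± 2.31% and 27.4 ± 0.823%. WNT7A held 16.3 ± 2.43%, 18.9 ± 1.20% and 13.2 ± 0.760%, so that WNT7B exceeded WNT7A 2.56 ± 0.435, 2.73 ± 0.259 and 2.08 ± 0.141 times. WNT10A had its highest share in the knockdown plus CAPN2 set, at 14.9 ± 0.707%, 14.2 ± 0.417% and 22.5 ± 1.66%. WNT4, a ligand outside the 10, held 11.8 ± 0.340%, 4.24 ± 0.456% and 17.9 ± 1.36%.

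FZD6 held 70.4 ± 1.27% of the RPKM of the 10 Frizzled genes in control, 74.4 ± 2.47% in the knockdown-labelled set and 84.3 ± 1.75% in the knockdown plus CAPN2 set (SD, n = 3). The summed Frizzled level was 95.7 ± 5.53, 94.3 ± 7.78 and 132 ± 9.95 RPKM. LRP6 was the lesser of the co-receptor pair, with 15.7 ± 1.66%, 18.1 ± 1.66% and 19.5 ± 2.06% of LRP5 and LRP6 together. DKK1 made up 85.9 ± 0.876%, 96.5 ± 0.497% and 89.9 ± 0.846% of Dickkopf RNA, in which DKK2 had 0 counts. RNF43 held 24.9 ± 1.71%, 26.0 ± 1.13% and 47.4 ± 5.62% of the pair it forms with ZNRF3, the other ubiquitin ligase against Frizzled. The height of this share is uncertain because of the exon overlaps of RNF43 given above. AXIN2 held at most 0.304% of AXIN1 and AXIN2 together in a group mean, and 0.554% in the highest library.

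The remaining pathway was read from 93 other Wnt genes, of which 67 had enough counts, and these were tested with edgeR. None of them is among the 10. In the knockdown-labelled set 11 rose and 21 fell against control (16.4% and 31.3% of the 67, beside 16.0% and 18.5% of all genes), with a median log2 difference of -0.19. Between knockdown plus CAPN2 and the knockdown-labelled set 14 rose and 24 fell (20.9% and 35.8%, beside 23.7% and 25.6%; median -0.14). Against control knockdown plus CAPN2 had 14 higher and 30 lower (20.9% and 44.8%, beside 27.9% and 28.4%; median -0.23). The list was drawn up with earlier results of these libraries known and its counts are a description. Genes named from it in the following are the 6 with the lowest adjusted p in each direction and comparison. None of these 36 calls was lost in 18 alternative analyses, and 1 value moved by over 1.5 times, that of TNKS.

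By role the counts are small and are set beside the shares of all genes called in each comparison. Among the other ligands, 0 of 7 tested rose and 3 fell in the knockdown-labelled set (all genes 16.0% higher and 18.5% lower). WNT4, a ligand of epithelial and gonadal development, fell 2.62-fold, from 24.7 ± 0.924 to 9.44 ± 0.478 CPM (edgeR adjusted p = 5.82e-08), and WNT3 1.72-fold (adjusted p = 0.000214). WNT5B was the third, at adjusted p = 0.0498, and missed the threshold in 17 of 18 alternatives (it is named here after its value was seen). In knockdown plus CAPN2 against the knockdown-labelled set 5 rose and 1 fell (all genes 23.7% and 25.6%). WNT4 rose 4.03-fold to 38.0 ± 4.23 CPM (adjusted p = 1.35e-10), WNT5B 4.97-fold from 1.08 ± 0.126 to 5.41 ± 0.653 CPM (adjusted p = 1.1e-06) and WNT6 6.09-fold from 0.439 ± 0.0512 to 2.72 ± 0.462 CPM (adjusted p = 1.47e-05). WNT6 had only 7, 10 and 7 counts in the knockdown-labelled libraries, so its fold is uncertain. Against control 4 ligands rose in knockdown plus CAPN2, WNT5B by 2.90-fold (adjusted p = 4.3e-05), and 1 fell (all genes 27.9% and 28.4%). WLS, the carrier that brings Wnt proteins to the surface, fell 1.39-fold in the knockdown-labelled set, from 208 ± 5.64 to 150 ± 9.81 CPM (adjusted p = 0.000223). It was as low in knockdown plus CAPN2, at 151 ± 4.11 CPM, 1.38-fold below control (edgeR adjusted p = 8.34e-05).

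Extracellular inhibitors other than the Dickkopf pair were few, with 3 of 13 listed genes tested. KREMEN1 and KREMEN2 encode surface proteins that work with DKK1 to clear LRP6. KREMEN2 fell 2.00-fold in the knockdown-labelled set (adjusted p = 6.01e-05), but shares exon bases with PKMYT1, which had 11350 counts against 1759, so its value is uncertain. KREMEN1 fell 2.33-fold in knockdown plus CAPN2 against control, from 56.0 ± 4.97 to 24.0 ± 1.23 CPM (edgeR adjusted p = 2.86e-08). It stood between them in the knockdown-labelled set, at 37.3 ± 4.74 CPM, and was called lower in all 3 comparisons. In the R-spondin axis, which sets how many Frizzled molecules stay at the surface, LGR4 rose 1.80-fold in the knockdown-labelled set, from 16.3 ± 1.26 to 29.3 ± 4.10 CPM (adjusted p = 4.53e-05). It fell 2.36-fold in knockdown plus CAPN2 against that label, to 12.5 ± 1.20 CPM (adjusted p = 2.76e-07). LGR6 was 2.98-fold above the knockdown-labelled set there (adjusted p = 1.2e-05) and 2.75-fold above control (adjusted p = 2.01e-05). ZNRF3 was 2.57-fold lower in knockdown plus CAPN2 than in control, at 12.6 ± 1.09 against 32.3 ± 2.46 CPM (adjusted p = 9.69e-09).

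Of 13 tested receptor genes 2 rose and 3 fell in the knockdown-labelled set, 2 rose and 3 fell on comparing knockdown plus CAPN2 with it, and 2 rose and 6 fell against control. Of all genes 16.0% and 18.5%, 23.7% and 25.6%, and 27.9% and 28.4% were called higher and lower in these comparisons, so for 13 genes the first 2 pairs of receptor counts lie near the background. FZD1 fell 1.77-fold in the knockdown-labelled set (adjusted p = 5.46e-05) and was 2.02-fold lower in knockdown plus CAPN2 than in control (adjusted p = 1.61e-06), from 23.0 ± 1.74 to 11.4 ± 1.35 CPM. FZD5 was 1.72-fold lower in the latter comparison (adjusted p = 2.64e-06), and FZD8 2.57-fold lower than in the knockdown-labelled set (adjusted p = 2.04e-06). FZD10 was the receptor with the largest rise, 4.05-fold in knockdown plus CAPN2 against control, but only from 1.08 ± 0.185 to 4.41 ± 1.11 CPM (adjusted p = 1.3e-05). No other Frizzled gene of the list was called higher against control.

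Inside the cell, 2 of 16 tested genes of the relay and destruction complex rose and 7 fell in the knockdown-labelled set (all genes 16.0% and 18.5%). In knockdown plus CAPN2 5 rose and 6 fell against that label (all genes 23.7% and 25.6%), and 4 rose and 7 fell against control (27.9% and 28.4%). In the knockdown-labelled set against control GSK3B, the kinase that marks beta-catenin for destruction, rose 1.55-fold (edgeR adjusted p = 3.22e-05). Its level went from 119 ± 5.73 to 184 ± 18.6 CPM, and was 155 ± 8.14 CPM in knockdown plus CAPN2. TNKS, a tankyrase that destabilises axin, rose 1.39-fold in the knockdown-labelled set against control (adjusted p = 0.00106). In knockdown plus CAPN2 against control APC, a scaffold of the complex, rose 2.94-fold, from 26.4 ± 5.66 to 77.6 ± 6.39 CPM (adjusted p = 2.61e-08), TNKS 1.76-fold (adjusted p = 1.1e-06) and TNKS2 1.58-fold (adjusted p = 1.63e-05). The log2 difference of TNKS there was 0.82, and 0.47 after the GC and length correction. That of APC was 1.56 there and ran from 1.07 to 1.66 over 18 alternatives, with the call kept. APC was 2.73-fold above the knockdown-labelled set (adjusted p = 1.09e-07). The 7 genes lower in knockdown plus CAPN2 than in control are named after their values were seen. DVL1, a relay protein below Frizzled, was 1.77-fold lower (edgeR adjusted p = 6.46e-06). CTNNBIP1, an inhibitor of beta-catenin binding to TCF, was 1.78-fold lower (adjusted p = 1.45e-05). The others were AXIN1 (1.58-fold), DVL2 (1.53-fold), GSK3A (1.51-fold), CSNK1D (1.38-fold, exon bases shared with SLC16A3) and CTNNB1, which encodes beta-catenin (1.17-fold). Of 12 nuclear factors 1 rose and 1 fell in the knockdown-labelled set, beside 16.0% and 18.5% of all genes. TLE3, a co-repressor, was 2.29-fold lower in knockdown plus CAPN2 than under that label and 2.62-fold lower than in control (adjusted p = 3.17e-08 and 2.67e-09).

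Of 10 tested targets 5 rose and 3 fell in the knockdown-labelled set (all genes 16.0% and 18.5%). In knockdown plus CAPN2 1 rose and 8 fell against that label (23.7% and 25.6%), and 1 rose and 6 fell against control (27.9% and 28.4%). SOX9, a transcription factor of progenitor cells, rose 1.95-fold in the knockdown-labelled set, from 25.0 ± 1.40 to 48.7 ± 1.85 CPM (adjusted p = 6.58e-07), and fell 2.43-fold to 20.0 ± 0.734 CPM in knockdown plus CAPN2 against it (adjusted p = 6.48e-09). CD44, a hyaluronan receptor, rose 1.37-fold (adjusted p = 0.000199) and fell 2.07-fold (adjusted p = 4.21e-09) in the same comparisons. MMP7, a matrix protease, rose 2.14-fold in the knockdown-labelled set (adjusted p = 0.000789). CCND1, which encodes cyclin D1, fell in both, from 1527 ± 30.1 CPM in control to 1028 ± 40.3 and 620 ± 21.3 CPM (adjusted p = 2.51e-05 and 5.5e-07), with exon bases shared with LTO1. JAG1, a Notch ligand, was 1.76-fold above the knockdown-labelled set (adjusted p = 2.32e-07). The 4 tested targets with a mean under 2 CPM, named here after their values were seen, did not follow 1 pattern. SP5 stood at 2.06 ± 0.583, 0.650 ± 0.252 and 0.223 ± 0.178 CPM (SD, n = 3) and was called lower in all 3 comparisons. NKD1 stood at 2.02 ± 0.456, 2.01 ± 0.188 and 0.707 ± 0.195 CPM and was called lower in knockdown plus CAPN2 against both other groups. TNFRSF19 stood at 0.143 ± 0.0654, 1.89 ± 0.388 and 0.385 ± 0.249 CPM, called higher in the knockdown-labelled set than in control (adjusted p = 3.57e-05), where it had 1, 3 and 3 counts, and lower in knockdown plus CAPN2 than under that label (adjusted p = 0.000315). ASCL2 stood at 1.41 ± 0.109, 0.761 ± 0.417 and 0.670 ± 0.230 CPM and was called lower only in knockdown plus CAPN2 against control (adjusted p = 0.0461). Most of these targets are known to answer to other pathways as well.

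**Figure D4:**
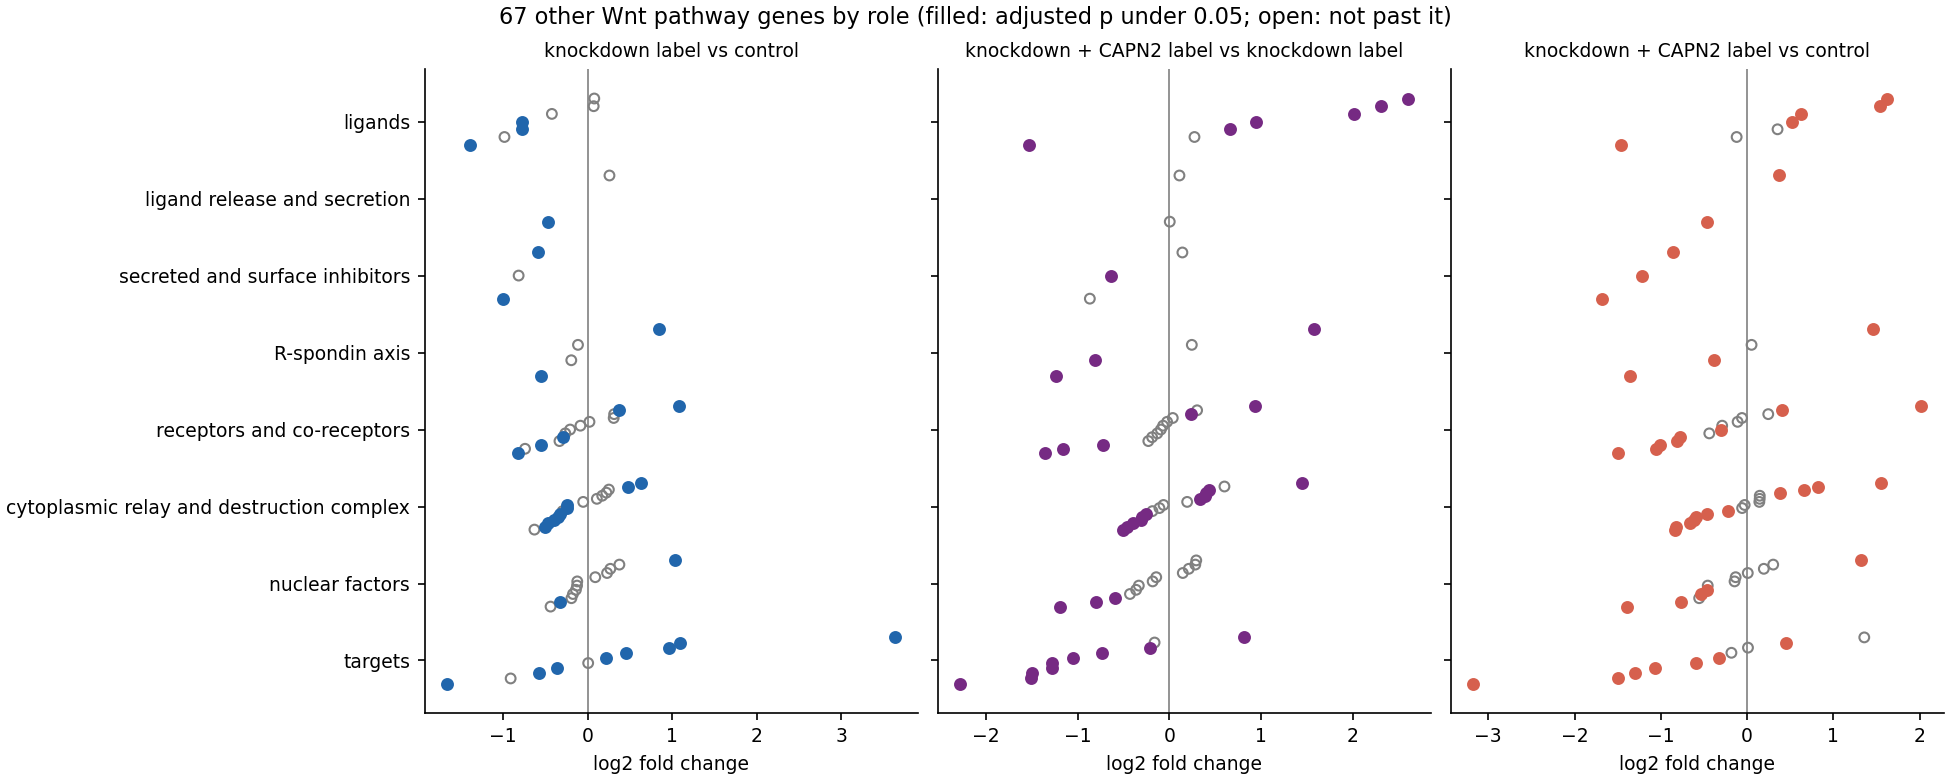
Log2 fold changes of the 67 tested genes outside the 10, 1 point per gene, by role (rows) in the 3 comparisons (panels), filled where edgeR's adjusted p was under 0.05. Other ligands lie mostly to the right in knockdown plus CAPN2 against the knockdown-labelled set (5 rose, 1 fell of 7), while targets lie mostly to the left there (1 rose, 8 fell of 10).

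Genes whose levels ran most like those of each Wnt gene over the 9 libraries were sought among 10366 genes, by Pearson's r of log2 levels. The 9 libraries form 3 groups, so these values mostly repeat the order of the groups and are a description. DKK1 was closest to DCAF16 and YTHDF2 (r = 0.992 and 0.989), DKK3 to PTPRA and EPHX1 (0.994 and 0.993) and FZD6 to DYNLT3 and SMC6 (0.995 and 0.994). WNT7B was closest to EPAS1 and MELTF (0.986 and 0.985), WNT7A to BNC1 and WIPI2 (0.965 and 0.946) and WNT10A to BICDL1 and PRDM16 (0.985 and 0.980). RNF43 was closest to PTPN9 and NAGLU (0.977 and 0.956). LRP6, which varied least between groups, had the weakest likeness, with VCPIP1 and NR3C1 at 0.913 and 0.910.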

How the data were processed

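Per the labels' protocols, RNA of 9 FaDu libraries in 3 groups was extracted with TRIzol and made into libraries with NEBNext Ultra RNA reagents, a chemistry that keeps no strand. The authors deposited raw counts of reads per gene, with a gene length in bases that was used for RPKM. HISAT2 2.0.5, StringTie 1.3.3b, featureCounts 1.5.0-p3 and build hg19 are named, without roles, per the submitters' processing notes. Positions in the deposited count table equal those of GENCODE v29 on GRCh38 for 58724 of 58735 genes and are given on that build. The strand setting is not given in the sources used here. Overlapping genes on either strand therefore cannot be told apart.

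Tests used edgeR 4.0.16 in R 4.3.3. Genes passing filterByExpr (minimum count 10, by group) numbered 16812. Libraries were scaled by TMM. The robust quasi-likelihood fit had a term for each group and took in every library, so the groups share 1 spread per gene. Benjamini-Hochberg adjustment covered every gene tested, and a gene was called at an adjusted p under 0.05. SE is |log2 fold change| over the root of the F statistic. The labels say biological replicates without naming separate cultures, so p-values measure only the spread between these libraries. The steps were tested on simulated counts in which few genes changed and all groups had the same spread per gene. That setting differs from these libraries, so the test does not cover their many changes or uneven spread.

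The 10 genes, the pathway and marker lists and the motifs were chosen with earlier results of these data known. By rule, AMIGO2, CAPN2, the 10 genes and, per comparison and direction, the 6 called pathway genes of lowest adjusted p with a mean of at least 1 CPM were named. For each of the 10 with a mean of at least 5 CPM, the 2 protein-coding genes of highest r in log2(CPM + 0.5), also of at least 5 CPM, were named. Alternatives were RLE and upper-quartile factors, DESeq2 1.42.0, other filters, the compared groups alone, a replicate block, a GC and length correction, and each library left out.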

Additional observations from a re-analysis of the deposited data

How the results depend on the processing

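The numbers of other Wnt pathway genes called higher and lower stayed within 1.5 times in all 18 alternatives. In the knockdown-labelled set against control they ran from 10 to 15 higher and 15 to 24 lower, between knockdown plus CAPN2 and the knockdown-labelled set from 12 to 15 and 18 to 29, and between knockdown plus CAPN2 and control from 12 to 19 and 25 to 31. Of 486 alternative values of the 9 fitted genes 43 changed call or sign, with 22 calls lost, 12 gained and 15 signs changed, mostly for WNT7A, WNT5A and LRP6. Same-numbered libraries had correlations of -0.111 to 0.063 in their deviations from the group means, and differently numbered ones -0.186 to 0.132. No pairing by number was thus seen, but 3 libraries a group cannot exclude that same-numbered libraries were handled together. With a replicate block 10 pathway genes were higher and 18 lower in the knockdown-labelled set, and the WNT7A difference of knockdown plus CAPN2 from control (log2 -0.27) was no longer called. Upper-quartile factors shifted the median of all genes by 0.10 (log2) between knockdown plus CAPN2 and control. Fold changes followed GC content across genes in the knockdown-labelled set (Spearman's rho = -0.363) and in knockdown plus CAPN2 against control (-0.287, 16802 genes, not independent replicates). The GC and length correction moved some of the values, among them that of TNKS given above, and the cause was not tested. Depth limits AXIN2, WNT5A, WNT6, SP5, NKD1, TNFRSF19 and ASCL2, among others, and 3 libraries a group limit every interval. The libraries labelled knockdown were less alike than the others, while the fit gave all groups 1 spread per gene.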
